A study of Mus musculus with 18 samples.

Results

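The 10 genes described here encode components of endoplasmic reticulum (ER)-associated degradation: Herpud1, Selenos, Syvn1, Sel1l, Derl1, Derl2, Derl3, Edem1, Edem2 and Edem3. They were chosen by gene symbol out of the 19938 genes measured, with earlier results of these data known. Each was read through its brightest probe set that names a single gene, and all 10 were found with 1 such probe set each. The arrays held RNA of mouse B16 F10.9-4 cells, a melanoma line, in 6 groups of 3 arrays, 1 array of each group in each of 3 independent experiments. Of these, 3 groups had been pretreated with doxycycline to induce LIP, the short isoform of the transcription factor C/EBPβ, and were collected at 0 h, or after 5 h or 12 h of tunicamycin, a drug that blocks N-linked glycosylation. The other 3 groups had no doxycycline: vehicle at 0 h, and tunicamycin for 5 h or 12 h. All cells were of this 1 line. No doxycycline-treated cells without the construct and no vehicle cells at 5 h or 12 h are used here, so LIP cannot be told apart from doxycycline itself, nor tunicamycin from time in culture.

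Proteins that fail to fold in the ER are recognised, moved back across the membrane, marked with ubiquitin and destroyed by the proteasome in the cytosol. Mannosidase-like proteins of the EDEM family help select glycoproteins for this route. The membrane complex of the ubiquitin ligase Syvn1 (HRD1) with its partner Sel1l receives the selected proteins. Derlins take part in the passage through the membrane, and Herpud1 and Selenos help assemble the complex and bring in the cytosolic ATPase Vcp. Several of these genes are known targets of the unfolded protein response, whose transcription factors ATF6, XBP1 and ATF4 bind short elements in promoters.

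Promoter stretches of 4 members are shown because they carry such elements or, for Selenos, 3 close copies of one of their parts. They are RefSeq sequences of build GRCm38.p6, read 5′ to 3′ on the strand of the gene, which is the plus strand in each case, and capitals mark the fixed letters of the stress elements and, in Selenos, of CCACG; a further CCACG copy each in the Herpud1 and Derl3 stretches is left in lower case. RefSeq windows from 250 bases before to 50 after a gene's start were held for 9 of the 10 genes in 10 windows, 2 of them for Derl2.
Herpud1, chr8:94386299-94386398: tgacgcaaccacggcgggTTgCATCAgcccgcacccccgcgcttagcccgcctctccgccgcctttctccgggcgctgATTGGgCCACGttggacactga
Syvn1, chr19:6046516-6046565: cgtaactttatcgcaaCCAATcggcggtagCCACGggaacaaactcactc
Derl3, chr10:75893223-75893272: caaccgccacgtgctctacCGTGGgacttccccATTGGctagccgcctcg
Selenos, chr7:66079579-66079648: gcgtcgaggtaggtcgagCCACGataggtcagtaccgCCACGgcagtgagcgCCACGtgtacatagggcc
The letters of the ER stress response element (ERSE), CCAAT and CCACG with 9 bases between them, were found for Syvn1 at -44 to -26 and, on the other strand, for Derl3 at -156 to -138, counted in bases from the start of the gene. Over both strands of all 32851 windows, 0.119% held them. The second form of the element (ERSE-II), ATTGG and CCACG with 1 base between them, was found for Herpud1 at -52 to -42, and 0.0365% of all windows held it. Herpud1 also had the core of the C/EBP-ATF element (CARE), TGATGNAA, on the other strand at -112 to -105, against 3.97% of all windows.

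The remaining searches gave less. The letters TGACGTGG of the unfolded protein response element were in 0 of the 10 member windows and in 0.676% of all windows, and the C/EBP core TTGCNNAA was in that of Edem2 alone, after the start, and in 10.8% of all windows. The 5 letters CCACG, which are part of both stress elements, occurred in 9 of the 10 member windows, those of all 9 genes, and in 32.8% of all windows; the windows of Selenos and Derl3 hold 3 copies each and those of Herpud1, Edem1 and Edem3 2 each. These matches describe letters only, and no binding was measured.

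**Figure D1:**
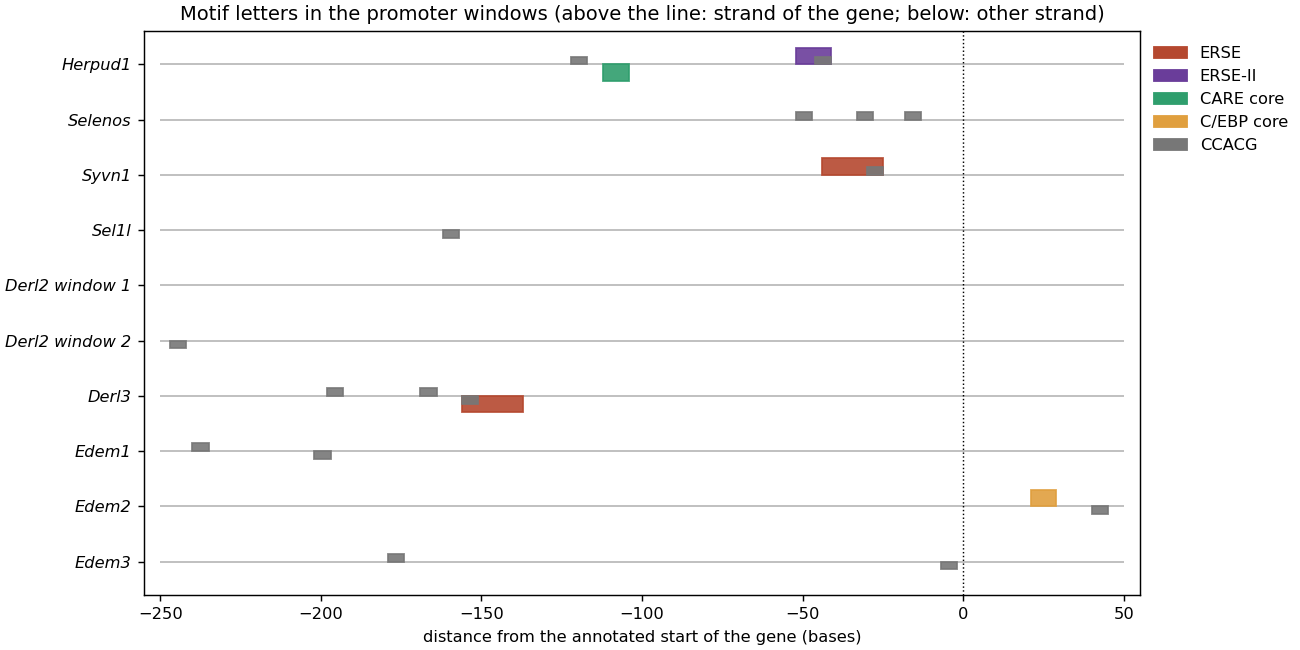
Positions of motif matches in the promoter windows of 9 members, in bases from the start of the gene (x axis), with 1 line per window and 2 windows for Derl2; Derl1 has no window here. ERSE or ERSE-II lies close to the start in Syvn1 and Herpud1 and farther upstream in Derl3.

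The 18 arrays resembled each other closely, with a Pearson r across genes of 0.997 to 0.999 within groups. Array medians over all 35557 probe sets were 6.96 to 7.04 on the log2 scale. Over the 19938 genes they were 7.32 to 7.42. These were 7.33 to 7.34 in vehicle cells, 7.37 to 7.39 with doxycycline at 0 h and 7.35 to 7.42 at 5 h without doxycycline. As a stand-in for silent genes, 1190 olfactory and vomeronasal receptor genes had a 95th percentile of 6.08, and all 10 members had mean levels above it. Of all genes other than these receptors, 70.5% had mean levels above it too. So did 10 of 10 pigment cell genes, against 3 of 6 fibroblast, 2 of 4 leukocyte, 1 of 4 endothelial and 3 of 4 epithelial genes. Cebpb, whose probe set does not separate the construct's RNA from the cell's own, averaged 11.18 with doxycycline and 9.33 in vehicle cells, a log2 change of 1.84 (adjusted p = 2.02e-11). It was higher by 1.81 with doxycycline at 5 h (adjusted p = 2.83e-11) and by 1.22 at 12 h (adjusted p = 8.27e-10). From 0 h to 12 h of tunicamycin, Cebpb itself rose by 0.96 without doxycycline, to 10.29 (adjusted p = 4.8e-09). With doxycycline it rose by 0.34, to 11.52 (adjusted p = 0.000876).

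Changes are log2 differences of group means from a limma fit of all 18 arrays and 19938 genes, a gene is called where its Benjamini-Hochberg adjusted p is under 0.05, and each group has n = 3 arrays. Levels are the authors' log2 RMA intensities. They are compared within a probe set only, and RMA understates the fold change of dim ones.

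After 12 h of tunicamycin without doxycycline, 9 of the 10 members rose and Derl3 did not pass the test; 27.7% of all genes were called in this comparison, 2365 upward and 3151 downward. The median change of the members was 0.82, against 0.00 over all genes. Herpud1 rose 4.88-fold, the ligase pair Syvn1 and Sel1l 3.22-fold and 3.11-fold, and Selenos 2.51-fold. Among all genes ordered from the largest increase down, these 4 stood at places 17, 39, 42 and 76. In RNA of whole cultures, a change in every cell and a change in the share of responding cells cannot be told apart.

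Herpud1, the ubiquitin-like-domain protein that organises the ligase complex, lies at chr8:94386429-94395371. With doxycycline its 3 arrays read 10.04, 9.93 and 10.09 at 0 h, 11.09, 11.002 and 11.18 at 5 h, and 12.73, 12.71 and 12.73 at 12 h of tunicamycin. Without doxycycline they read 10.65, 10.77 and 10.67 in vehicle cells, 11.52, 11.38 and 11.59 at 5 h, and 12.99, 12.99 and 12.97 at 12 h. No neighbouring pair of the 6 groups overlapped, in the order doxycycline at 0 h, vehicle, 5 h with and then without doxycycline, and 12 h with and then without it. The change at 12 h without doxycycline was 2.29 ± 0.0599 (SE, adjusted p = 5.63e-15).

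Selenos, a selenoprotein of the ER membrane that binds Vcp, lies at chr7:66079649-66089405. With doxycycline it read 9.29, 9.52 and 9.45 at 0 h, 9.77, 9.66 and 9.85 at 5 h, and 11.23, 11.11 and 11.24 at 12 h. Without it the arrays read 9.54, 9.47 and 9.69 in vehicle cells, 9.51, 9.47 and 9.75 at 5 h, and 10.93, 10.85 and 10.91 at 12 h. The vehicle and 5 h arrays overlapped, while every 12 h array lay above both, and those with doxycycline lay above those without it. The change from tunicamycin for 12 h over vehicle was 1.33 ± 0.0782 (SE, adjusted p = 2.25e-10).

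Syvn1, the ubiquitin ligase, lies at chr19:6046576-6053718. With doxycycline it read 9.73, 9.80 and 9.78 at 0 h, 9.98, 9.94 and 10.13 at 5 h, and 11.56, 11.62 and 11.67 at 12 h. Without doxycycline it read 9.93, 9.90 and 9.95 in vehicle cells, 9.97, 10.07 and 10.15 at 5 h, and 11.60, 11.55 and 11.68 at 12 h. The 12 h arrays stood apart from all others, and those with and without doxycycline overlapped. Its change after 12 h without doxycycline was 1.68 ± 0.0583 (SE, adjusted p = 1.31e-13).

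Sel1l, the adaptor that passes substrates to Syvn1, lies at chr12:91806043-91849157. With doxycycline it read 10.87, 10.90 and 10.87 at 0 h, 11.11, 11.03 and 11.002 at 5 h, and 12.40, 12.46 and 12.51 at 12 h. Without doxycycline it read 10.83, 10.78 and 10.89 in vehicle cells, 10.96, 10.93 and 11.02 at 5 h, and 12.50, 12.44 and 12.46 at 12 h. At 12 h the arrays with and without doxycycline overlapped, far above those at 0 h and 5 h. The 12 h change without doxycycline was 1.64 ± 0.0478 (SE, adjusted p = 1.47e-14).

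**Figure D2:**
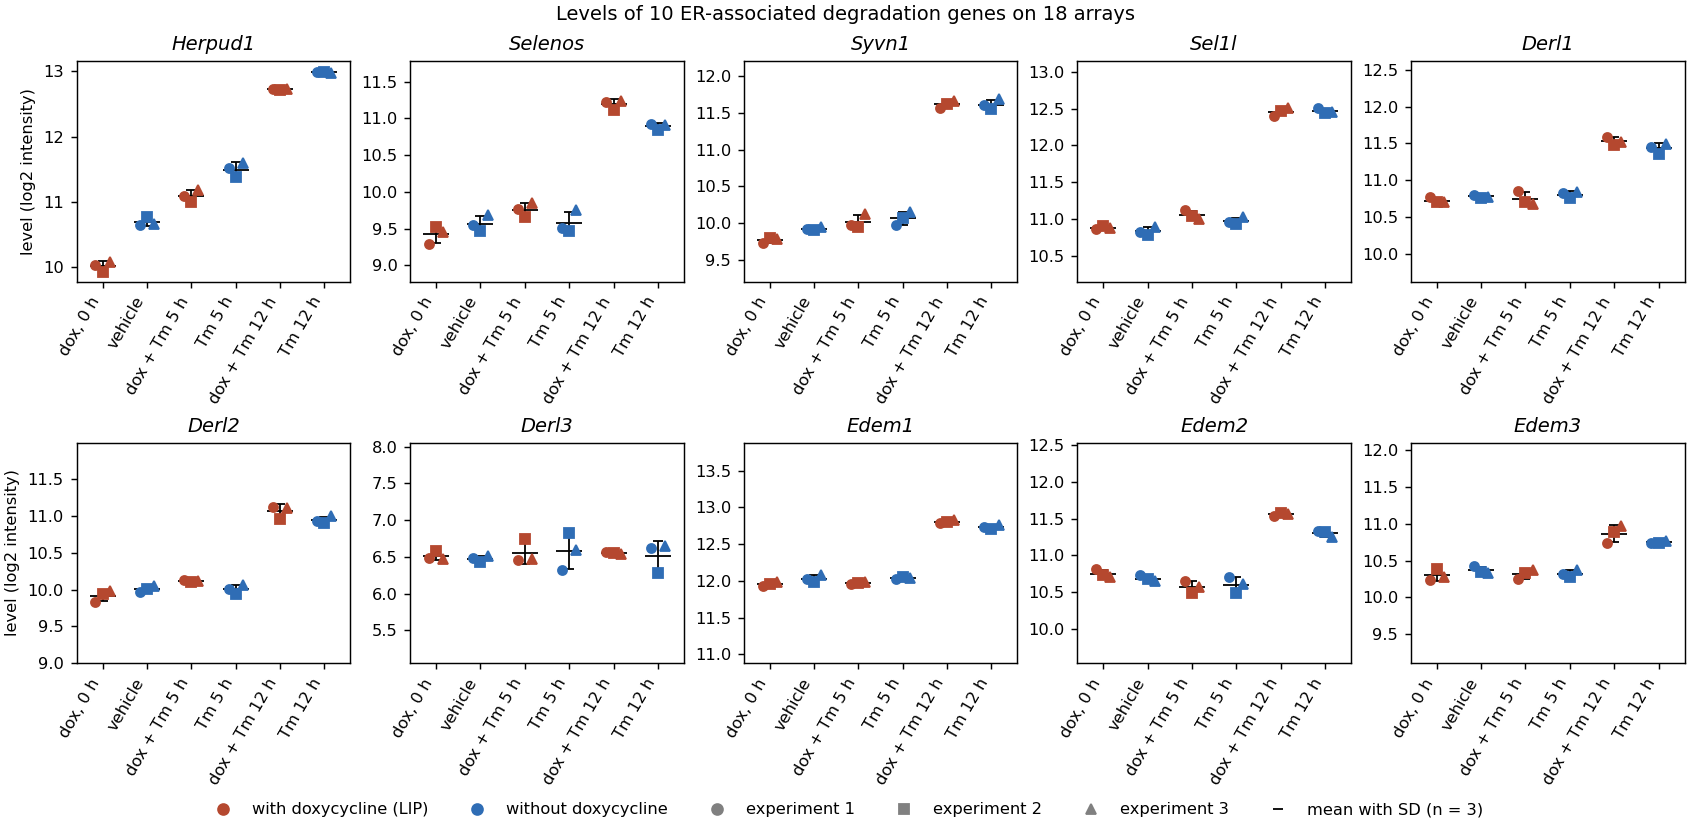
Log2 RMA level (y axis) of each member on every array, by group (x axis); point shapes mark the 3 experiments, horizontal lines the group means and bars the SD (n = 3 arrays). Herpud1 is separated by doxycycline at each time, and Derl3 stays between 6.28 and 6.82 on all 18 arrays.

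Of the derlins, membrane proteins related to rhomboid proteases, Derl1 and Derl2 rose and Derl3 did not pass the test. Derl2, at chr11:71007440-71019841, rose by 0.94 ± 0.0543 at 12 h without doxycycline (SE, adjusted p = 1.75e-10), its arrays reading 10.93, 10.90 and 10.998 in tunicamycin cells against 9.96, 10.00 and 10.05 in vehicle cells. Derl1, at chr15:57869502-57892418, rose by 0.66 ± 0.0543 (SE, adjusted p = 2.2e-08). Derl3, at chr10:75893398-75895941, had a change of 0.04 with a 95% interval of -0.18 to 0.26 (adjusted p = 0.857). Its tunicamycin arrays at 12 h read 6.62, 6.28 and 6.65, against 6.48, 6.43 and 6.51 in vehicle cells. In the order of their means, each of the 6 groups overlapped the next. The arrays at 12 h with doxycycline, 6.54 to 6.57, lay just above those of vehicle cells. The mean level of Derl3 over all arrays was 6.53, close to the 95th percentile of the receptor genes.

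The EDEM genes all rose at 12 h without doxycycline. Edem1, at chr6:108824045-108859356, rose by 0.71 ± 0.0410 (SE, adjusted p = 1.75e-10). Edem2, at chr2:155701673-155729475, rose by 0.62 ± 0.0563 (SE, adjusted p = 8.15e-08), with arrays at 11.34, 11.32 and 11.25 in tunicamycin cells against 10.73, 10.67 and 10.65 in vehicle cells. Edem3, at chr1:151755344-151822328, had the smallest called change of the members, 0.38 ± 0.0587 (SE, adjusted p = 4.72e-05), with 3 arrays at 10.74 to 10.77 against 10.34 to 10.42 in vehicle cells.

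Each of these 9 calls held without any single array or experiment, and in all 31 alternatives but 1: Edem3 is lost when a change of at least 0.5 is required.

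After 5 h of tunicamycin without doxycycline, 9.02% of all genes were called, 813 upward and 985 downward (495 and 1578 with array medians set equal). Herpud1 was the only member called, and it rose. Its change was 0.80 ± 0.0599 (SE, adjusted p = 1.24e-07), 1.74-fold, and it was the gene with the 23rd largest increase. The experiments gave 0.87, 0.61 and 0.92. Syvn1 and Sel1l changed by 0.14 each and did not pass the test (adjusted p = 0.165 and 0.0844). For both genes every 5 h array lay above every vehicle array. The other 7 members lay between -0.08 and 0.10. The median of the members was 0.02, as over all genes.

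Between 5 h and 12 h without doxycycline, the same 9 members as at 12 h rose; 25% of all genes were called, 2264 upward and 2719 downward (2606 and 1868 with array medians set equal). This comparison shares the 12 h arrays with the 12 h comparison over vehicle and the 5 h arrays with the 5 h one. Syvn1 rose by 1.55, Sel1l by 1.50, Herpud1 by 1.49 and Selenos by 1.31 (adjusted p from 1.3e-13 to 3.05e-10). Derl2 rose by 0.94, and Derl1, Edem1, Edem2 and Edem3 by 0.63, 0.70, 0.70 and 0.43. Derl3 changed by -0.06 (adjusted p = 0.758).

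**Figure D3:**
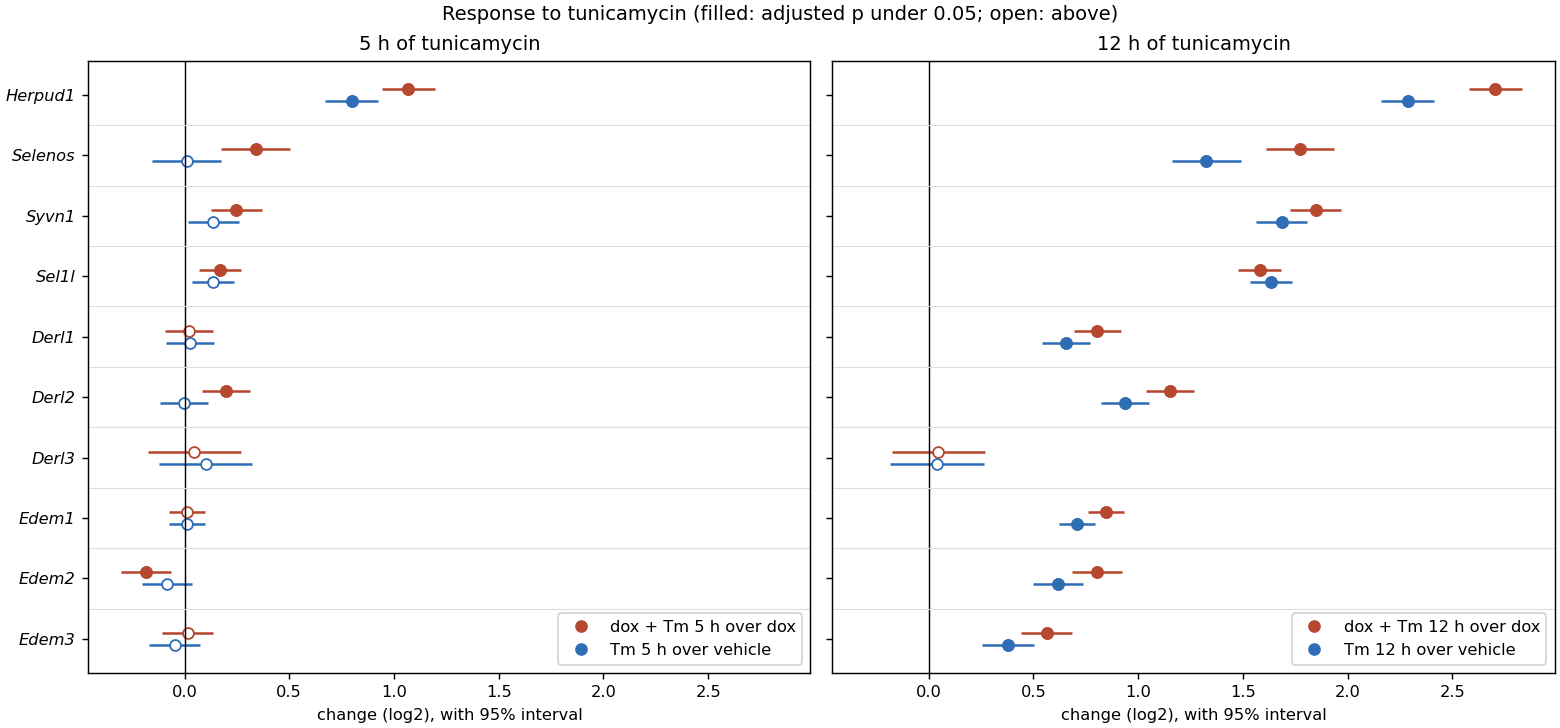
Log2 change of each member with tunicamycin (x axis, with 95% intervals), with doxycycline over its own 0 h arrays and without doxycycline over vehicle, at 5 h and 12 h; filled points have an adjusted p under 0.05. At 12 h 9 members are filled in either arm, and at 5 h Herpud1 has the highest value in both.

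Before tunicamycin, 1 member differed with doxycycline: Herpud1 fell by 0.68 on the log2 scale (SE 0.0599, adjusted p = 8.2e-07), to 0.626 of its vehicle level. Of all genes, 10.7% were called, 974 upward and 1161 downward (587 and 1761 with array medians set equal). It had the 24th largest decrease of all genes. All 3 doxycycline arrays lay below all 3 vehicle arrays, and the experiments gave -0.61, -0.84 and -0.58. The median of the members was -0.07, against 0.02 over all genes. Syvn1 was also lower on every doxycycline array, by 0.16 (a change of -0.16, adjusted p = 0.0986); with the experiment number as a replicate block its adjusted p was 0.0423 and 2 members were called. Selenos changed by -0.15 (adjusted p = 0.289), and the other 7 lay between -0.09 and 0.07.

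At 5 h of tunicamycin Herpud1 was again the 1 member called between cells with and without doxycycline, and it fell by 0.41 with it (SE 0.0599, adjusted p = 0.000115); 12% of all genes were called. The experiments gave -0.43, -0.38 and -0.41. Selenos changed by 0.18 with an adjusted p of 0.17, and of 0.0315 without the third tunicamycin array at 5 h, where 2 members were called. Derl2 was higher on every array with doxycycline, 10.12, 10.10 and 10.12 against 10.00, 9.94 and 10.06, at a change of 0.11 that did not pass the test (adjusted p = 0.239). Edem1 was lower on every array with doxycycline, at a change of -0.07 that did not pass either (adjusted p = 0.4). The median of the members was -0.03, against -0.01 over all genes.

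At 12 h, 2 members rose with doxycycline and 1 fell, and 14.7% of all genes were called. Herpud1 fell by 0.26 (SE 0.0599, adjusted p = 0.00516). Selenos rose by 0.30 ± 0.0782 (SE, adjusted p = 0.0121), and Edem2 by 0.26 ± 0.0563 (SE, adjusted p = 0.00326). Edem2 read 11.53, 11.58 and 11.56 with doxycycline, against 11.34, 11.32 and 11.25 without. For these 3 genes every array with doxycycline lay on one side of every array without it. The same held for Edem1, which was higher by 0.07 with doxycycline and did not pass the test (adjusted p = 0.328).

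The ligase pair did not pass the test at 12 h. Syvn1 differed by 0.00 with a 95% interval of -0.12 to 0.13, and Sel1l by -0.01 with an interval of -0.11 to 0.09. Derl2 differed by 0.13 (adjusted p = 0.15), and Edem3, Derl1, Edem1 and Derl3 by 0.12, 0.10, 0.07 and 0.04 (adjusted p from 0.246 to 0.897). Without the second tunicamycin array at 12 h the Selenos call was lost (adjusted p = 0.0504), as it was without the third array with doxycycline (adjusted p = 0.0554) and without experiment 1 or 3 (0.0682 to 0.129), and without the second array with doxycycline Derl2 was called (adjusted p = 0.0372). No member changed by 0.5 or more, and leaving out experiment 1 took the adjusted p of Herpud1 to 0.118, while leaving out experiment 3 took that of Edem2 to 0.142.

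Beside these differences, the means of all 10 pigment cell genes were lower with doxycycline at each time. They ranged from 6.81 to 13.58 with doxycycline at 0 h against 7.27 to 13.71 in vehicle cells, from 6.52 to 13.58 against 6.82 to 13.69 at 5 h, and from 6.73 to 13.61 against 7.17 to 13.73 at 12 h. For Mitf, the melanocyte transcription factor, the means at 0 h were 11.74 with doxycycline and 12.34 in vehicle cells. Their part in the results was not tested.

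**Figure D4:**
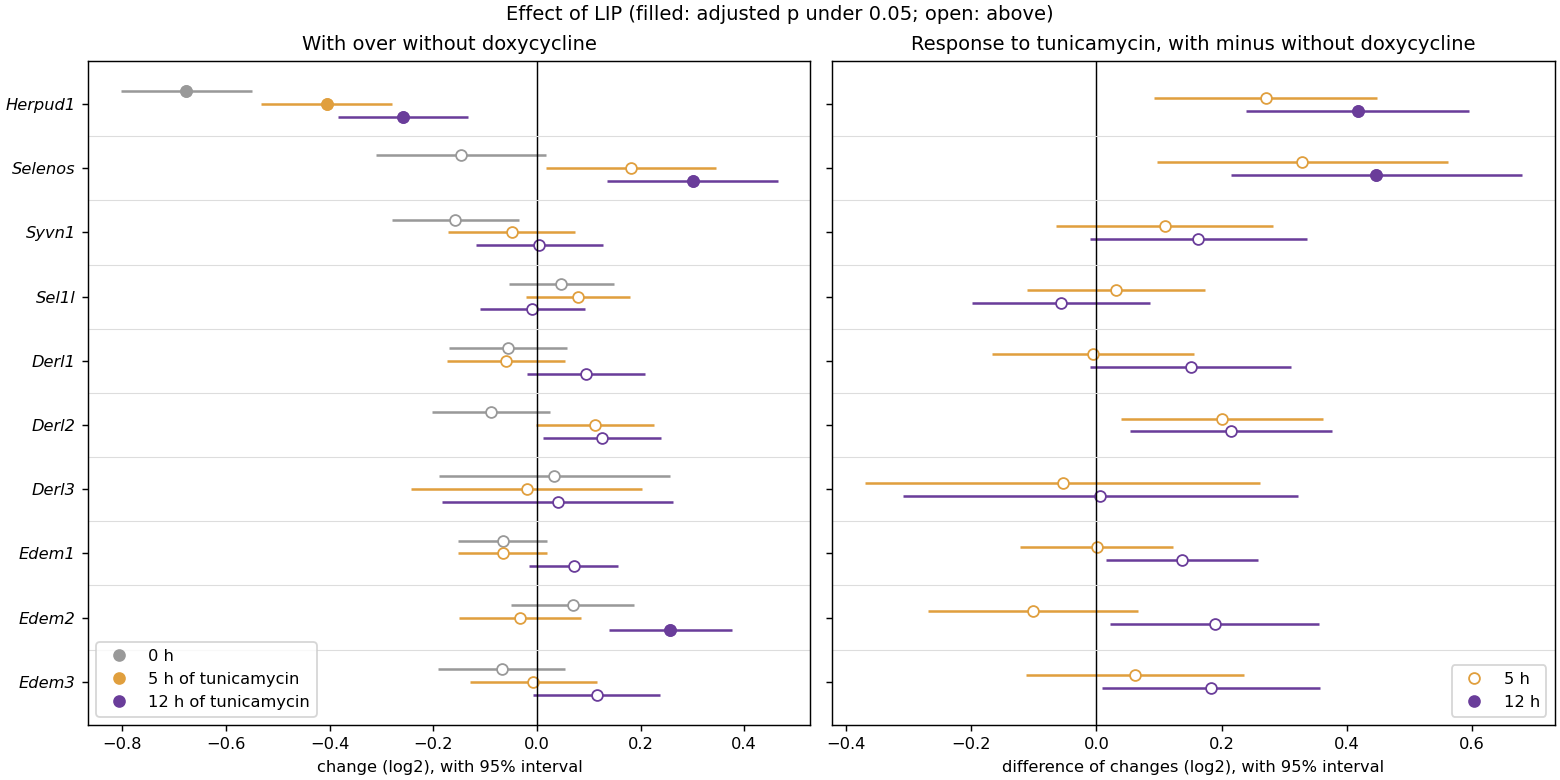
Left: log2 change with over without doxycycline (x axis, with 95% intervals) for each member at 0, 5 and 12 h. Right: the response to tunicamycin with doxycycline minus that without it; filled points have an adjusted p under 0.05. Herpud1 lies at -0.68, -0.41 and -0.26 on the left, and Herpud1 and Selenos are filled at 12 h on the right.

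In cells with doxycycline, 9 members rose after 12 h of tunicamycin over 0 h, again all but Derl3, and 29.9% of all genes were called. The largest change was that of Herpud1, 2.71 (6.52-fold, adjusted p = 1.15e-15), followed by Syvn1 at 1.85, Selenos at 1.77 and Sel1l at 1.58. Derl2 rose by 1.15, Edem1 by 0.85, Derl1 and Edem2 by 0.81 each and Edem3 by 0.56 (adjusted p = 3.66e-07). Derl3 changed by 0.05 (adjusted p = 0.827). The median of the members was 1.00, against -0.02 over all genes. From 5 h to 12 h with doxycycline the same 9 rose and 26.3% of all genes were called, with a median of 0.97 over the members. Edem2 rose by 0.99 in that step, and Derl3 changed by 0.00 (95% interval -0.22 to 0.22).

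After 5 h of tunicamycin over 0 h, both with doxycycline, 5 members rose and 1 fell, and 12.1% of all genes were called. Herpud1 rose by 1.07 (adjusted p = 1.61e-09), Selenos by 0.34 (adjusted p = 0.00639), Syvn1 by 0.25 (adjusted p = 0.00763), Derl2 by 0.20 (adjusted p = 0.0197) and Sel1l by 0.17 (adjusted p = 0.024). Edem2 fell by 0.18 (adjusted p = 0.0387), with arrays at 10.65, 10.49 and 10.56 in tunicamycin cells against 10.81, 10.74 and 10.71 at 0 h. Selenos kept its call without each single array but lost it without experiment 1 or 3 (adjusted p of 0.0596 to 0.196). Syvn1 lost it without the third 5 h array (adjusted p = 0.052) and without experiment 1 or 3 (0.0944 to 0.137). Sel1l lost its call without 5 h array 1 or 2 or 0 h array 1 or 3 (adjusted p of 0.0529 to 0.115). Derl2 lost it without 5 h array 1 or 3 or 0 h array 1 (0.0562 to 0.118). Edem2 lost it without 5 h array 2 or 3 or any of the 0 h arrays (0.0578 to 0.182). Leaving out any 1 experiment also cost Sel1l (0.096 to 0.308), Derl2 (0.0568 to 0.289) and Edem2 (0.1 to 0.244) their calls.

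Whether doxycycline altered the response to tunicamycin was tested as the difference between both responses. At 12 h, 2 members passed: Herpud1 with a difference of 0.42 ± 0.0848 (SE, adjusted p = 0.0128) and Selenos with 0.45 ± 0.111 (SE, adjusted p = 0.0446), while 1.84% of all genes were called. Herpud1 thus rose by 2.71 with doxycycline, starting lower and ending lower, against 2.29 without it. Its experiments gave 0.35, 0.55 and 0.35, and those of Selenos 0.55, 0.22 and 0.58.

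The other 8 members did not pass at 12 h. Their differences ran from -0.06 for Sel1l to 0.21 for Derl2 (adjusted p = 0.811 and 0.212), and the median of the 10 was 0.17, against -0.02 over all genes. Herpud1 kept its call without each single array but lost it without any 1 of the 3 experiments (adjusted p of 0.0501 to 0.291). Selenos lost it without experiment 1 or 3 (0.474 to 0.515), and without any 1 of 10 of the 18 arrays (0.0552 to 0.137). Those 10 were arrays 1 and 3 of each group at 0 h and of 12 h with doxycycline, all 3 of 12 h without it, and array 1 of 5 h with doxycycline. At 5 h, 0 members and 0.0301% of all genes were called, with 0.27 for Herpud1 (adjusted p = 0.415) and 0.33 for Selenos (adjusted p = 0.461).

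The members were then set beside 48 further genes of the same process, also chosen with earlier results of these data known. After 12 h of tunicamycin without doxycycline, 24 of them rose and 3 fell, 56.2% against 27.7% of all genes, with a median of 0.17. With a change of at least 0.5 required, 5 of the 48 were called, and 9 with doxycycline. Among all 19938 genes, the same requirement left 652 up and 652 down without doxycycline, and 741 up and 706 down with it. Without this requirement and without doxycycline, of 14 genes of substrate recognition and handling, 9 rose and 1 fell, with a median of 0.44. Of 14 ubiquitin ligases and conjugating enzymes, 8 rose and 0 fell (median 0.16), and of 20 genes of extraction and cytosolic handling, 7 rose and 2 fell (median 0.09).

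The largest of these changes was that of Dnajb9, an ER co-chaperone of BiP, at 2.24 (adjusted p = 1.66e-13). Sdf2l1, another ER-resident factor of protein quality control, rose by 1.33 and Selenok, a selenoprotein of the ER membrane, by 0.95. The lectin Os9, which hands glycoproteins to the ligase complex, rose by 0.71, the thioredoxin-domain protein Txndc11 by 0.68 and the membrane protein Erlin1 by 0.49. The 3 that fell, named after their values were seen, were Erlin2 at -0.31, Sgta at -0.21 and Usp25 at -0.19. Without experiment 3, Erlin2 and Usp25 lost the call (adjusted p = 0.0734 and 0.0912), and Sgta lost it without experiment 1 or 3 (0.0504 to 0.172). With doxycycline over its 0 h arrays, 27 of the 48 rose and 2 fell by 12 h, 60.4% against 29.9% of all genes.

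At 5 h without doxycycline, 4 of the 48 rose and 2 fell, 12.5% against 9.02% of all genes, and none was called without experiment 1. Dnajb9 rose by 0.42, and, named after their values were seen, Rnft1 and Erlin1 rose by 0.22 each and Ube2j1 by 0.15, while Rnf5 and Ube2g1 changed by -0.23 and -0.22. Between cells with and without doxycycline at 12 h of tunicamycin, 6 rose and 1 fell, 14.6% against 14.7% of all genes, with 1 called without experiment 1 and 2 without experiment 3. Man1b1, a mannosidase that trims glycans, fell by 0.39, and Dnajb9, Rnft1 and Herpud2, a relative of Herpud1, rose by 0.30, 0.27 and 0.25. Before tunicamycin, 2 rose and 2 fell with doxycycline, 8.33% against 10.7% of all genes, and 1 was called without experiment 1 or 3. Rnft1 rose by 0.25 and Herpud2 by 0.15, while Sdf2l1 changed by -0.38 and Txndc11 by -0.28. In the difference of responses at 12 h, Dnajb9 (0.50, adjusted p = 0.0229) and Txndc11 (0.44, adjusted p = 0.0184) passed, 4.17% of the 48 against 1.84% of all genes. Several of these smaller calls rested on single arrays. Dnajb9 lost that difference without array 1 or 3 of doxycycline at 0 h or of 12 h with doxycycline, array 3 of vehicle or array 2 of 12 h without doxycycline (adjusted p of 0.05 to 0.0742). Txndc11 lost it without array 1 of vehicle, array 2 of doxycycline at 0 h or array 3 of either 12 h group (0.0506 to 0.0626). Between the 12 h groups Dnajb9 lost its call without array 1 with doxycycline or array 2 without it (0.0513 to 0.069). Before tunicamycin, Txndc11 lost its call without array 1 of vehicle (0.053) and Herpud2 without any 1 of the 6 arrays compared (0.0634 to 0.129). At 5 h, Rnft1 lost it without array 1 of vehicle (0.0543), Rnf5 without array 3 of vehicle or 2 of tunicamycin (0.0807 to 0.0818) and Ube2g1 without array 2 of vehicle or 3 of tunicamycin (0.0518 to 0.0588). Erlin1 lost it there without any vehicle array or array 1 or 3 of tunicamycin (0.0522 to 0.0931), and Ube2j1 without any tunicamycin array or array 1 or 3 of vehicle (0.0529 to 0.0955).

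**Figure D5:**
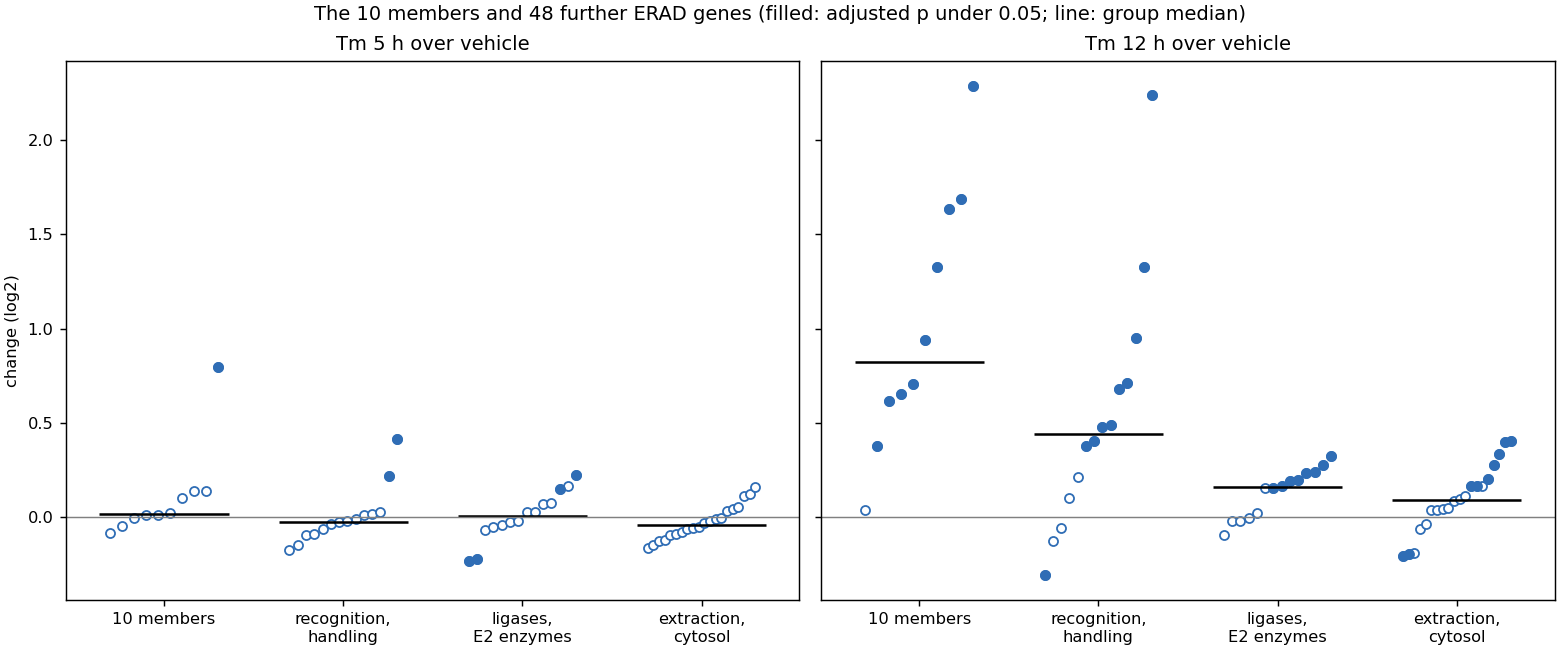
Log2 change (y axis) after 5 h (left) and 12 h (right) of tunicamycin without doxycycline over vehicle for the 10 members and the 48 further genes of the process, in 3 groups by role (x axis); filled points have an adjusted p under 0.05 and lines are medians. At 12 h the members reach from 0.04 to 2.29, and the other groups have medians of 0.44, 0.16 and 0.09.

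Across the 18 arrays, the levels of the members other than Derl3 were closely related. Over the 36 pairs without Derl3, Pearson r ran from 0.798 (Herpud1 with Edem2) to 0.995 (Selenos with Derl2), and over the 9 pairs with Derl3 from -0.08 to 0.06. The arrays share their 6 groups, so these points are not independent. The genes most like each member by the same measure were Slc1a5 for Herpud1 (0.991), Tcea1 for Selenos (0.991), Alg12 for Syvn1 (0.997) and Prrc1 for Sel1l (0.997). For Derl1 it was Zc3h7a (0.991), for Derl2 Ibtk (0.992), for Edem1 Ero1b (0.996), for Edem2 Chid1 (0.991) and for Edem3 Rsbn1 (0.979). For Derl3 it was Gpr139, at 0.914.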

How the data were processed

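Total RNA of 18 cultures was labelled with biotin and hybridised to Affymetrix arrays, per the labels. The authors deposited log2 intensities of 35557 probe sets, summarised by RMA with Partek named as well, per the submitters' processing notes, which state no version or setting. No further normalisation was applied. Probe sets naming 1 gene (21789) were joined to 19938 genes through GEO's platform table, the brightest kept where a gene had several (999 genes), and 1621 naming several genes were left out; 21698 of the Entrez IDs were found in RefSeq. No filter on low values was applied.

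Groups came from sample titles. limma 3.58.1 in R 4.3.3 fitted the means of 6 groups to all 18 arrays (12 residual degrees of freedom), with 11 comparisons and Benjamini-Hochberg adjustment over all genes in each. The members and the lists were chosen with earlier results of these data known. Named were the members, and of the wider list the 6 genes changed most at 12 h of tunicamycin and the 4 changed most by doxycycline at 12 h. The fit was tested on simulated data.

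The study's design states independent experiments that each held every group. Arrays with equal replicate numbers in their titles were therefore taken to be of the same experiment. The main fit did not use this pairing. Over 45 same-numbered pairs the median correlation of deviations from group means was 0.04 (range -0.50 to 0.50), against -0.01 for pairs of other numbers. Depth has no counterpart on arrays, and their number limits the precision. Promoter windows are those of RefSeq, searched for exact letters on both strands. In all, 31 alternatives were run per comparison, 1 of them added after seeing the data.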

Additional observations from a re-analysis of the deposited data

Results flagged for a closer look

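4 results differ between cells with and without doxycycline by the test of the difference itself, the 12 h response to tunicamycin with doxycycline minus that without it. Groups of 3 arrays are too small to be searched for outlying arrays gene by gene. Arrays were ranked only by their residual spread over all genes. It was largest for array 2 of 5 h without doxycycline (SD 0.113) and next for array 3 of 12 h without it (0.0895). Herpud1 had a difference of 0.418 (adjusted p = 0.0128), with the same sign in 3 of 3 experiments, and was not called without any 1 of them (adjusted p of 0.0501 to 0.291). Selenos had 0.447 (adjusted p = 0.0446), with the same sign in 3 of 3 experiments, and was not called without experiment 1 or 3 (0.474 to 0.515). Of the wider list, Dnajb9 had 0.505 (adjusted p = 0.0229) and Txndc11 0.442 (adjusted p = 0.0184); without experiment 1 or 3 neither was called (0.404 to 0.412 and 0.171 to 0.49). What accounts for these differences was not tested.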

How the results depend on the processing

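Of 3410 values of single members under an alternative, 3335 kept their side of the threshold, 65 lost the call and 10 gained it. Of the 3335, 95 turned their sign, all of changes of at most 0.10 that were not called in either setting. The count of members called at 5 h of tunicamycin, 1, was 2 with quantile normalization repeated, 2 with a trended and robust prior and 3 with array weights. That for doxycycline over vehicle, 1, was 2 under the replicate block, under array weights, under equal array medians and in a fit of the compared groups alone. A required change of at least 0.5 left 0 of 1 member for doxycycline at 5 h, 0 of 3 at 12 h, 1 of 6 at 5 h over 0 h with doxycycline and 0 of 2 for the difference of responses at 12 h. Without the 2 arrays of largest residual spread (array 2 of 5 h and array 3 of 12 h without doxycycline), chosen after seeing the data, 1 of those 2 was called. Leaving out 1 array or 1 experiment at a time gave 1 to 2, 1 to 4, 1 to 6 and 0 to 2 for these 4 counts, and left the others as they were. Under the replicate block no other member's call changed. The causes were not tested. Over all genes at 5 h of tunicamycin, 494 were called up and 560 down in a fit of the compared groups alone and 2247 and 2134 with array weights, against 813 and 985. Array weights also gave 1705 and 1926 for doxycycline over vehicle, against 974 and 1161, and 1773 and 1832 for doxycycline at 5 h, against 1348 and 1038, where the compared groups alone gave 852 and 561. For the difference of responses, array weights called 119 genes at 5 h, against 6, and 777 at 12 h, against 367; a trended and robust prior called 27 and 567. A required change of at least 0.5 called 118 at 12 h, leaving out experiment 1 or 3 called 47 and 39 there, and leaving out experiment 1 or 3 called 0 at 5 h. Of the 48 further genes, 2 were called at 5 h of tunicamycin in a fit of the compared groups alone and 10 with array weights, against 6, and 7 and 9 for doxycycline over vehicle with a trended prior and with array weights, against 4. For doxycycline at 5 h and at 12 h, 4 were called with only the compared groups, against 7 each. Leaving out experiments 1, 2 and 3 in turn gave 0, 2 and 1 of the 48 at 5 h of tunicamycin, and 3, 4 and 2 for doxycycline at 5 h. With 3 arrays a group, the calls on small changes rest on few measurements.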
